A study of Homo sapiens with 30 samples.

Results

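ACKR3 (ENSG00000144476.6) and CXCR4 (ENSG00000121966.7) encode the 2 receptors of the chemokine CXCL12. Both genes were picked by name, and each matched 1 row among the 37843 genes of the LNCaP count table. Messenger RNA had been sequenced from LNCaP, an androgen-sensitive prostate cancer line that was grown from a metastasis in a lymph node. Cells were seeded at 130000 per well, kept for 48 h in medium whose 8% serum had been stripped of hormones with charcoal, and then exposed for 24 h to vehicle or to R1881, a synthetic androgen, at 0.03, 0.06, 0.1 or 10 nM. Every group therefore shares the hormone-free period, and the vehicle group stands for cells without added androgen. There were 3 libraries per group, with the replicate numbers 2, 3 and 4, and 15 in all. The series set out to compare low with high androgen doses, in connection with a response that rises and then falls with dose. The labels do not say that the libraries came from separate cultures, so p-values measure only the spread between these libraries, which may be technical. A single established line was used, and in such bulk samples fewer cells of a type and less RNA per cell cannot be told apart.

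CXCL12 is a secreted chemokine that guides migrating cells, and its receptors divide the work of sensing it and removing it. CXCR4 is a G protein-coupled receptor that signals through inhibitory G proteins to kinases and the cytoskeleton, and it has been studied for the homing of prostate cancer cells to bone. ACKR3, once called CXCR7, is an atypical receptor: it binds CXCL12 tightly, recruits arrestins without activating G proteins, and carries the ligand into the cell for degradation.

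Both genes lie on chromosome 2, ACKR3 on the plus strand (236567787 to 236582358) and CXCR4 on the minus strand (136114349 to 136118165; GENCODE 29, GRCh38), 100.4 Mb apart. No annotated gene overlapped either of them on either strand. Their exons cover 2258 and 2224 bases, so their counts can be compared almost directly. The promoter of CXCR4, the member whose RNA was scarce without androgen, is printed to show which motifs stand just before an annotated start site. Counts were per gene, so which start site the RNA used was not measured. The sequence is the 250 bases before the RefSeq start site, 136118149 (GRCh38.p14, chr2:136118150-136118399, minus strand, 5′ to 3′), with capitals for TATAAA and for the palindrome bound by the factor NRF1, which is GCGCA followed by its reverse complement.
CXCR4 promoter: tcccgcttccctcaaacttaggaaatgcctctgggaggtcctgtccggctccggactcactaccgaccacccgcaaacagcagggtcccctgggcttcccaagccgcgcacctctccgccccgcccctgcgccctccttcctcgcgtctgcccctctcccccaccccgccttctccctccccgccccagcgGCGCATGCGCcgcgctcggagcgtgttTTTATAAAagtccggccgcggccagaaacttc
TATAAA, the TATA box that positions the transcription machinery, was found in 2 overlapping matches on opposite strands, 32 and 30 bases before the start, and 10.7% of 35116 RefSeq promoter windows of the same length hold it. The NRF1 palindrome was found once, 59 bases before the start, and 1.03% of windows hold it. Of the 3 CXCR4 windows in the table only the one printed holds these 2 motifs. GGGCGG, the GC box, had 3 matches (135, 130 and 70 bases before the start), a motif present in 42.6% of windows. AGAACA, the core of the androgen response element, was not in this window or in either of the other CXCR4 windows of the table, while 12.4% of all windows hold it. The full element, AGAACA with its reverse complement 3 bases further on, was in none of the 3 CXCR4 windows and in 0.00285% of all windows. ACGTG, one form of the core of hypoxia response elements, was likewise absent, against 18.5% of windows. GCGTG, the other form, does stand in the printed sequence, but it was not sought over the windows. All motifs given with a share of windows were sought on both strands.

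ACKR3 RNA was abundant without androgen and fell at every step of the dose series. In vehicle the 3 libraries held 6144, 6683 and 6452 counts, which are 144, 148 and 149 CPM (counts scaled to a library of 1000000). At 0.03 nM R1881 the values were 122, 127 and 126 CPM, and at 0.06 nM they were 90.0, 98.4 and 94.8 CPM. The lowest library at 0.03 nM stood above the highest at 0.06 nM, and no library of either dose reached the vehicle range. At 0.1 nM the libraries gave 73.8, 69.4 and 71.4 CPM, and at 10 nM they gave 18.7, 18.8 and 17.4 CPM from 710, 1014 and 689 counts. The 5 groups formed 5 separate bands with no overlap between any neighbouring pair.

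**Figure D1:**
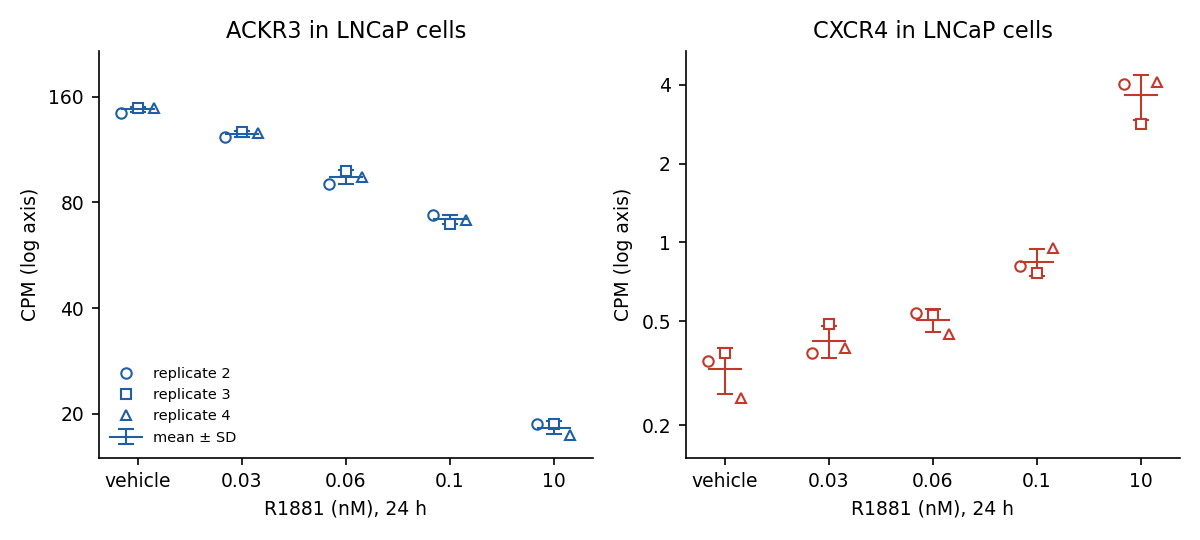
Level of ACKR3 (left) and CXCR4 (right) in CPM on a log axis against R1881 dose after 24 h; each open symbol is 1 library and the bars give the mean ± SD of 3. ACKR3 steps down from 147 to 18.3 CPM with separate bands at every dose, and CXCR4 climbs from 0.328 to 3.66 CPM with most of the climb at 10 nM.

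Mean ACKR3 levels were 147 ± 2.62, 125 ± 2.47, 94.4 ± 4.21, 71.5 ± 2.21 and 18.3 ± 0.784 CPM from vehicle to 10 nM (SD, n = 3). As a share of vehicle the 4 doses left 85.1%, 64.2%, 48.6% and 12.4% of the level. Against vehicle, edgeR's quasi-likelihood test gave log2 differences of −0.23 ± 0.047 at 0.03 nM (SE, adjusted p = 0.00409), −0.64 ± 0.048 at 0.06 nM (adjusted p = 2.45e-08), −1.04 ± 0.048 at 0.1 nM (adjusted p = 1.97e-11) and −3.01 ± 0.053 at 10 nM (adjusted p = 1.55e-17). The fall at 10 nM was 8.04-fold, and 178 of 18403 genes tested fell further. ACKR3 was thus among the 3.16%, 14.3%, 20.6% and 28.3% of tested genes called lower than vehicle at 0.03, 0.06, 0.1 and 10 nM.

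Each increase in dose also lowered ACKR3 further. The edgeR log2 difference was −0.41 ± 0.048 from 0.03 to 0.06 nM (adjusted p = 6.26e-05), −0.40 ± 0.048 from 0.06 to 0.1 nM (adjusted p = 0.000197) and −1.97 ± 0.052 from 0.1 to 10 nM (adjusted p = 2.4e-14). Falls were called for 2.06%, 0.293% and 19.5% of tested genes in these 3 steps, so ACKR3 was 1 of 54 genes called lower between 0.06 and 0.1 nM. From 0.06 to 10 nM the difference was −2.37 ± 0.052 (edgeR adjusted p = 1.1e-15), where 22.6% of genes were called lower and 142 fell further. No dose reversed the direction.

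CXCR4 RNA was near the lower limit of measurement without androgen, and it rose at 0.1 nM and above. The vehicle libraries held 15, 17 and 11 counts, or 0.352, 0.377 and 0.254 CPM. An exact 95% Poisson interval, which covers counting error only, runs from 5.49 to 19.7 for the library with 11 counts. At 0.03 nM the libraries gave 0.377, 0.486 and 0.394 CPM (16, 17 and 20 counts), so their lowest value met the highest of vehicle. At 0.06 nM they gave 0.538, 0.527 and 0.446 CPM (22, 16 and 17 counts), which overlapped the 0.03 nM group. The values of 0.1 nM, 0.815, 0.762 and 0.950 CPM (32, 35 and 32 counts), lay above all libraries of lower doses. At 10 nM the counts were 153, 153 and 163, giving 4.03, 2.83 and 4.11 CPM, and the lowest of these was still above every other library. Replicate 3 was the low one at 10 nM, and its count has a 95% Poisson interval of 130 to 179.

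Mean CXCR4 levels were 0.328 ± 0.0652, 0.419 ± 0.0587, 0.504 ± 0.0504, 0.842 ± 0.0969 and 3.66 ± 0.718 CPM (SD, n = 3), which is 1.28, 1.54, 2.57 and 11.2 times vehicle at the 4 doses. The edgeR log2 difference from vehicle was 1.34 ± 0.25 at 0.1 nM (adjusted p = 0.000288) and 3.46 ± 0.21 at 10 nM (adjusted p = 1.63e-10), and both rises passed the threshold of 0.05. At 10 nM 174 of the tested genes rose further. The 2 lowest doses did not pass: 0.34 ± 0.28 at 0.03 nM (edgeR adjusted p = 0.562, 95% interval −0.21 to 0.88) and 0.61 ± 0.27 at 0.06 nM (edgeR adjusted p = 0.104, interval 0.07 to 1.15). The counts at 0.03 nM were too few to resolve a change of that size. Rises over vehicle were called for 5.47%, 16.9%, 21.5% and 29.3% of tested genes at 0.03, 0.06, 0.1 and 10 nM.

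Between neighbouring doses only the last step of CXCR4 passed. The edgeR log2 difference was 0.28 ± 0.26 from 0.03 to 0.06 nM (adjusted p = 0.616, interval −0.24 to 0.79) and 0.73 ± 0.24 from 0.06 to 0.1 nM (adjusted p = 0.207, interval 0.26 to 1.20). The second of these pairs did not overlap, and its unadjusted edgeR p was 0.00708. From 0.1 to 10 nM CXCR4 rose by 2.12 ± 0.19 (edgeR adjusted p = 7.33e-08), a step in which 108 genes rose further, and from 0.06 to 10 nM by 2.85 ± 0.21 (edgeR adjusted p = 3.12e-09), where 95 did. The share of tested genes called higher was 4.2%, 1.07%, 20.6% and 22.7% in these 4 comparisons, in the order given. In order of level, vehicle, 0.03 and 0.06 nM were therefore neighbours whose differences did not pass the test, 0.06 and 0.1 nM were separate in range without passing, and 10 nM stood apart.

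Even after opposite changes ACKR3 remained the more abundant receptor RNA. Per kilobase of exon its level was 65.2, 55.4, 41.8, 31.7 and 8.10 CPM from vehicle to 10 nM, against 0.147, 0.188, 0.226, 0.379 and 1.65 CPM for CXCR4. Among 18115 tested genes with a length, 97.4% had a lower level per kilobase than ACKR3 in vehicle and 69.0% at 10 nM. For CXCR4 the share rose from 8.85% to 40.0%. ACKR3 thus moved from the upper end of the expression range toward its middle, while CXCR4 moved up from the lower end.

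The ratio of ACKR3 to CXCR4 counts within a library needs no scaling for depth. It was 410, 393 and 587 in vehicle, 324, 261 and 321 at 0.03 nM, and 167, 187 and 213 at 0.06 nM. At 0.1 nM it was 90.5, 91.0 and 75.2, and at 10 nM 4.64, 6.63 and 4.23. None of the 5 groups overlapped another, and the groups ran downward in order of dose.

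**Figure D2:**
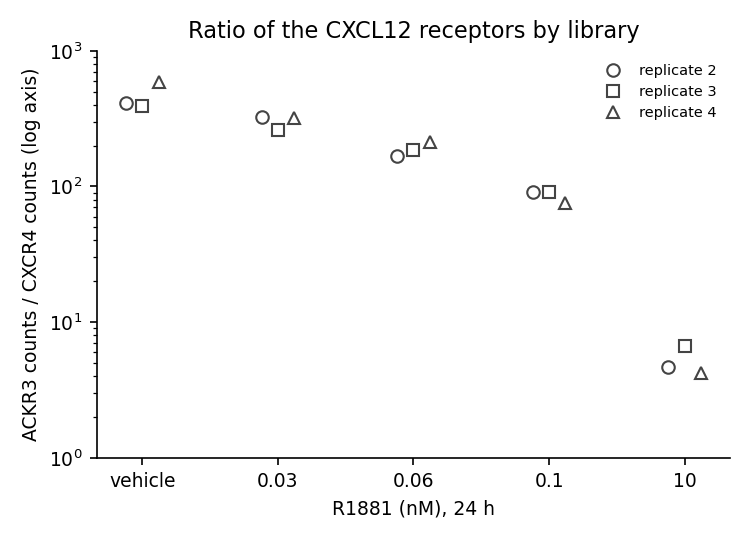
Ratio of ACKR3 counts to CXCR4 counts in each of the 15 libraries, on a log axis, against R1881 dose; each symbol is 1 library. The vehicle libraries lie between 393 and 587 and the 10 nM libraries between 4.23 and 6.63, with the other doses in between and no overlap.

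The geometric mean of the ratio was 455 in vehicle and 301, 188, 85.2 and 5.07 at the 4 doses. The mean log2 ratio differed from vehicle by −0.60, −1.28, −2.42 and −6.49, and the last is an 89.9-fold drop. The exact two-sided permutation test gave p = 0.1 for each dose (0.1 after Benjamini-Hochberg adjustment over the 4), the smallest p that 3 against 3 libraries allow, so this test could not reach 0.05.

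On the log2 scale most of the change of both receptors came between 0.1 and 10 nM, a wide gap in which no dose was measured. In CPM the larger part of the ACKR3 fall came by 0.1 nM: 147 in vehicle, 71.5 at 0.1 nM and 18.3 at 10 nM. Of its log2 change from vehicle to 10 nM, ACKR3 had made 7.76% at 0.03 nM, 21.3% at 0.06 nM and 34.6% at 0.1 nM, which left 65.4% for the step to 10 nM. CXCR4 had made 9.71%, 17.7% and 38.8% at the same doses, which left 61.2%. The serine protease KLK3 (prostate-specific antigen), the standard androgen-induced gene, had made 55.8%, 74.0% and 83.1%. Its level rose from 103 ± 7.65 CPM in vehicle to 3855 ± 79.6 CPM at 10 nM, with every dose label in order. Among the 1942 genes called lower at 10 nM by a log2 of at least 1, the median share made by 0.1 nM was 48.4%, and 27.8% of them had a smaller share than ACKR3. Among the 1131 called higher by as much, the median was 49.96%, and 33.9% had a smaller share than CXCR4. These shares describe the 2 genes and were not tested.

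Total counts ran from 30666460 to 61199483 per library. The 5 libraries numbered 3 had 9.31% to 10.7% of their counts in mitochondrial genes, against 6.14% to 7.69% in the other 10, and all 16 results of the receptors kept direction and call without them. With library totals in place of TMM scaling, the median log2 change of all genes at 10 nM against vehicle moved from −0.01 to −0.22, and the genes called went from 5399 higher and 5209 lower to 3069 and 7987. The split also moved for 10 against 0.1 nM (3787 and 3589 to 2164 and 5994), 10 against 0.06 nM (4182 and 4159 to 2333 and 7043), and 0.06 against 0.03 nM (773 and 379 to 472 and 395). Against vehicle the majority turned from higher to lower at 0.06 nM (3114 and 2633 to 2542 and 2896) and at 0.1 nM (3958 and 3787 to 3145 and 4486). Log2 changes below are relative to a median gene near −0.01 under TMM scaling.

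Of 7 ligands and processing enzymes listed for the 2 receptors, 6 were in the table and 5 were tested. At 10 nM 1 was higher than vehicle and 2 were lower, where 29.3% and 28.3% of all tested genes were, with a median log2 of 0.12, against −0.01 over all genes. CXCL12 itself was hardly expressed, with 0.164, 0.622 and 0.392 CPM in the vehicle libraries and 0.0264, 0.148 and 0.202 CPM at 10 nM. The groups overlapped and the call rested on few counts (52 in vehicle, 17 at 10 nM): −1.60 ± 0.64, edgeR adjusted p = 0.0397. That call ended without any 1 of 4 libraries (vehicle replicate 3 or 4, 10 nM replicate 2 or 3), with adjusted p of 0.202, 0.0709, 0.129 and 0.0661, and at 0.143 without the 5 libraries numbered 3. ADM, the peptide hormone adrenomedullin that ACKR3 also takes up, fell from 0.944 ± 0.287 to 0.153 ± 0.00516 CPM (log2 −2.61 ± 0.32, edgeR adjusted p = 1.47e-06). ADM counts were few, 50, 28 and 45 in vehicle and 6, 8 and 6 at 10 nM. With the stricter low-count filter 0 genes of this list were called lower. DPP4, the peptidase that trims and inactivates CXCL12, was higher at 0.1 nM than at either end: 0.875 ± 0.299 CPM in vehicle, 3.48 ± 0.738 at 0.1 nM and 1.56 ± 0.517 at 10 nM. Its rise at 0.1 nM passed (edgeR adjusted p = 6.67e-06) and it fell by 1.13 from 0.1 to 10 nM (edgeR adjusted p = 0.00087). Its smaller call at 10 nM against vehicle (0.86, edgeR adjusted p = 0.0125) ended without vehicle replicate 3 or 4, 10 nM replicate 3 or all libraries numbered 3, with adjusted p of 0.0598, 0.0557, 0.133 and 0.230. HMGB1, whose complex with CXCL12 acts through CXCR4, had 0.12 (edgeR adjusted p = 0.174), and MIF, a cytokine that binds both receptors, had 0.18 (edgeR adjusted p = 0.26). With library totals both of these values turned negative. HMGB1 was called higher than vehicle at 0.06 nM (0.25, edgeR adjusted p = 0.0134) and at 0.1 nM (0.32, edgeR adjusted p = 0.00159). Its 0.06 nM call ended in 4 of 23 alternatives and its 0.1 nM call in 0. CXCL11, the other chemokine ligand of ACKR3, was below the filter, with 10 counts in the 3 vehicle libraries and 58 at 10 nM.

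Other chemokine receptors and ligands were scarce. Of 22 other receptors 18 were in the table and 3 were tested, so ACKR3 and CXCR4 were 2 of 5 chemokine receptor genes above the filter. CX3CR1, the fractalkine receptor, fell from 0.389 ± 0.1 to 0.13 ± 0.0544 CPM at 10 nM (log2 −1.57 ± 0.38, edgeR adjusted p = 0.00199), and the median of the 3 was −0.41. CX3CR1 counts were 20, 19 and 12 in vehicle and 7, 7 and 3 at 10 nM. With the stricter low-count filter 0 of these receptors were called lower. ACKR2, a scavenger of inflammatory chemokines, had 1.53 CPM in vehicle and 1.16 at 10 nM, and CCR10, a receptor of epithelial chemokines, had 0.136 CPM in both, and neither passed. Of 41 other ligands 21 were in the table and only CXCL16, a transmembrane chemokine, was tested: it fell from 40.2 ± 1.18 to 27.5 ± 0.679 CPM (log2 −0.54 ± 0.062, edgeR adjusted p = 5.96e-07).

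All 18 listed genes of receptor desensitisation and trafficking, the machinery that phosphorylates, ubiquitinates and sorts CXCR4 and ACKR3, were tested. At 10 nM 11 were higher and 4 lower than vehicle, with a median log2 of 0.21, against 29.3% and 28.3% of all tested genes. With library totals 6 were higher and 6 lower, against 3069 and 7987 of all genes. RAB4A, which returns receptors rapidly to the surface, rose from 65.3 ± 5.52 to 228 ± 14.3 CPM (log2 1.81 ± 0.082, edgeR adjusted p = 2.51e-12). The kinases that mark active receptors split. GRK2 rose from 141 ± 3.09 to 265 ± 6.08 CPM (log2 0.91 ± 0.051, edgeR adjusted p = 4.65e-11), while GRK5 fell from 2.38 ± 0.478 to 0.729 ± 0.129 CPM (log2 −1.69 ± 0.23, edgeR adjusted p = 5.24e-06) and GRK3 fell by 0.42 (edgeR adjusted p = 1.58e-06). Both arrestins, which bind ACKR3 and CXCR4 after phosphorylation, were lower: ARRB1 by −0.33 ± 0.076 (edgeR adjusted p = 0.00101) and ARRB2 by −0.40 ± 0.054 (edgeR adjusted p = 4.82e-06). The calls of GRK6 and STAM2 (0.19 and 0.20) ended with library totals, where both values turned negative, and that of STAM2 ended in 7 further settings. At 0.03, 0.06 and 0.1 nM 1, 4 and 5 genes of the list were higher, where 5.47%, 16.9% and 21.5% of all tested genes were, and 0, 3 and 3 were lower, where 3.16%, 14.3% and 20.6% were. These counts lie near the shares over all genes.

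Of 5 listed partners 3 were tested and all were higher at 10 nM, where 29.3% of all tested genes were, with a median log2 of 0.58, and 2 were higher with library totals. EGFR, a growth factor receptor described as a partner of ACKR3, rose from 72.1 ± 4.44 to 142 ± 12.1 CPM at 0.1 nM and 192 ± 4.64 at 10 nM (log2 1.41 ± 0.078 at 10 nM, edgeR adjusted p = 3.52e-11). CD164, a sialomucin that associates with CXCR4, rose from 347 ± 30.1 to 520 ± 57.5 CPM (log2 0.58 ± 0.092, edgeR adjusted p = 2.85e-05). CD74, the MIF receptor chain, and CD44, a co-receptor, were below the filter.

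Of 29 listed genes of the signalling below CXCR4, 24 were tested. At 10 nM 11 were higher and 5 lower, with a median log2 of 0.07, against 29.3% and 28.3% of all tested genes. With library totals 5 were higher and 12 lower, against 3069 and 7987 of all genes. Among the inhibitory G protein subunits that couple to CXCR4, GNAI3 rose from 88.0 ± 3.86 to 137 ± 4.57 CPM (log2 0.64 ± 0.049, edgeR adjusted p = 3.35e-09) and GNAI2 had 80.0 and 80.9 CPM. GNAI1 (0.61) and the G protein regulators RGS2 (0.97) and RGS16 (0.63) passed, and each call ended with library totals, with adjusted p of 0.102, 0.0654 and 0.0865. The call of GNAI1 also ended without vehicle replicate 3 (0.0556). That of RGS2 ended without vehicle replicate 2 (0.101) or 4 (0.0608) or 10 nM replicate 3 (0.0733), and that of RGS16 with DESeq2 (adjusted p = 0.05004) and without vehicle replicate 4 (0.0856) or 10 nM replicate 3 (0.0518). PAK1, a kinase that acts on the cytoskeleton below CXCR4, fell from 17.9 ± 0.837 to 7.19 ± 0.605 CPM (log2 −1.32 ± 0.084, edgeR adjusted p = 2.69e-10). The 5 lower genes became 3 without vehicle replicate 4 or 10 nM replicate 4, and 3 with DESeq2 or with no filter.

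Of 10 listed transcription regulators of CXCR4, 9 were tested. At 10 nM 2 were higher and 4 lower, against 29.3% and 28.3% of all tested genes, with a median log2 of −0.03. Among the factors described as activators of CXCR4, HIF1A, the hypoxia factor, rose from 148 ± 2.9 to 227 ± 13.7 CPM (log2 0.62 ± 0.053, edgeR adjusted p = 1.51e-08), and NFKB1 fell from 94.6 ± 10.9 to 42.7 ± 2.22 CPM (log2 −1.15 ± 0.094, edgeR adjusted p = 7.73e-09). NRF1, whose palindrome stands in the promoter printed above, fell by 0.28 (edgeR adjusted p = 0.00978), and VHL, which marks HIF proteins for destruction, fell by 0.28 (edgeR adjusted p = 0.000141). EPAS1, the second HIF alpha subunit, was lower by −0.79 ± 0.14 (edgeR adjusted p = 0.000138), and FOXO1 was higher by 0.79 ± 0.15 (edgeR adjusted p = 0.000241). These are RNA levels of the factors and give no measure of their activity at CXCR4.

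**Figure D3:**
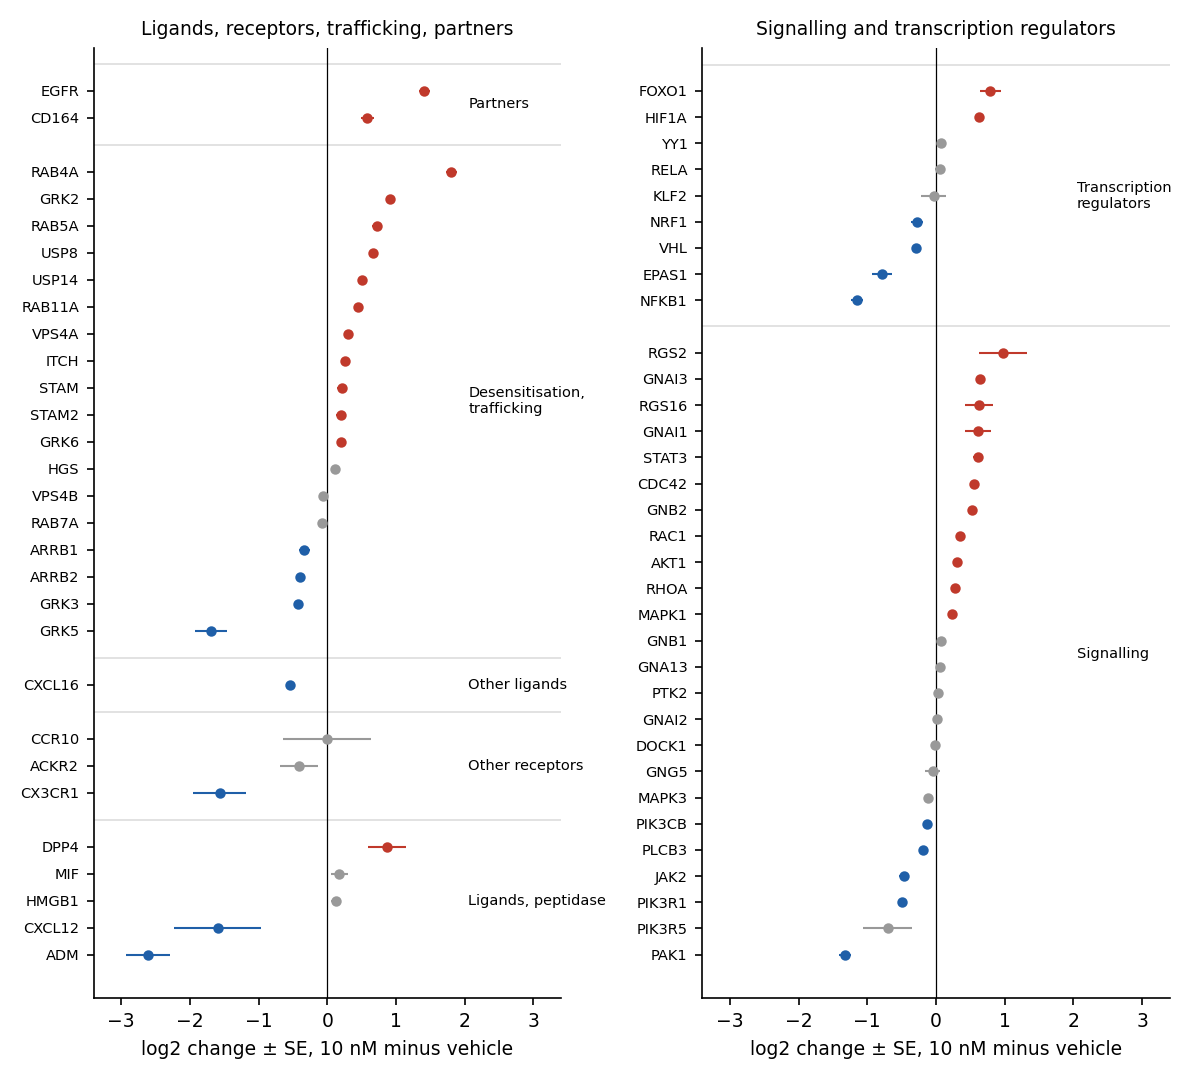
Log2 change at 10 nM against vehicle with its SE for tested genes of the 7 lists around the 2 receptors; red points passed the edgeR test as higher, blue points as lower, and grey points did not pass. ADM (−2.61) and GRK5 (−1.69) lie far left and RAB4A (1.81) and EGFR (1.41) far right. Of 18 trafficking genes 11 were called higher and 4 lower (median 0.21), and of 24 signalling genes 11 and 5 (median 0.07). Over all tested genes 29.3% were called higher and 28.3% lower.

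The labelled cell type was checked with markers. All 10 prostate luminal markers were tested. At 10 nM 5 were higher and 4 lower than vehicle, against 29.3% and 28.3% of all tested genes. Their summed level was 4931 to 5033 CPM in vehicle and 13546 to 13839 CPM at 10 nM, with KRT8 and KRT18 among the higher and FOLH1 and EPCAM among the lower. Leukocytes, which carry much CXCR4 in tissues, left little trace: of 10 markers 7 were in the table and none was tested, the sum was 0 to 0.422 CPM in every library, and PTPRC was at 0 in 4 of the 5 groups. Endothelial cells can carry ACKR3, and the sum of 7 endothelial markers was 17.7 to 20.9 CPM in vehicle, 15.3 to 21.4 CPM at 0.1 nM and 5.42 to 8.02 CPM at 10 nM. The 2 tested markers were VWF, with log2 −0.05 at 0.1 nM (edgeR adjusted p = 0.791) and −1.55 at 10 nM (edgeR adjusted p = 5.15e-08), and EMCN, with −0.59 (edgeR adjusted p = 0.101) and −2.37 (edgeR adjusted p = 1.05e-05). Nearly all of the sum was VWF, and PECAM1, CDH5 and CLDN5 had 0 to 2 counts in each group. The sum of the fibroblast and smooth muscle markers (9 of 10 in the table, 5 tested) was 33.1 to 43.9 CPM in vehicle and 25.5 to 28.7 CPM at 10 nM, mostly COL1A1. At 0.1 nM this sum was 23.8 to 28.2 CPM. Of the 5 tested, 2 were lower at 0.1 nM, and at 10 nM 4 were lower (COL1A1, COL3A1, LUM and PDGFRB) and ACTA2 was higher, with a median log2 of −1.66. Among all tested genes 20.6% were lower at 0.1 nM, and 28.3% were lower and 29.3% higher at 10 nM. The 2 tested endothelial markers and 4 of the 5 tested fibroblast markers were lower than vehicle at 10 nM, as were ACKR3 and 28.3% of all tested genes. The fibroblast sum was no lower at 10 nM than at 0.1 nM. The part of these markers in the fall of ACKR3 was not tested. Of 4 basal markers 3 were in the table, and their sum was 0.0231 to 0.0444 CPM in vehicle, 0.386 to 0.915 CPM at 0.1 nM and 0.290 to 0.537 CPM at 10 nM. The 1 tested basal marker, KRT14, had 3 counts over the 3 vehicle libraries and 32, 50, 71 and 49 at the 4 doses. At each dose edgeR called it higher than vehicle, as it did 5.47%, 16.9%, 21.5% and 29.3% of all tested genes. With 3 vehicle counts KRT14 could pass the low-count filter only through dosed groups, so these calls carry no weight of their own. It was highest at 0.1 nM and CXCR4 at 10 nM, and its part in the rise of CXCR4 was not tested.

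The genes whose pattern over the 15 libraries was most like that of each receptor were ranked by Pearson's r of log2 CPM among 11219 tested genes with a mean of at least 5 CPM in some group. The libraries fall into dose groups, so r describes likeness and carries no p. For ACKR3 the first 5 were COLEC12 (0.996), ELFN2 (0.994), ADCY7 (0.993), KSR2 (0.993) and TRIB1 (0.993), which changed at 10 nM by log2 −2.01, −2.05, −2.71, −1.79 and −1.54. COLEC12, a scavenger receptor, had 75.9 ± 4.16 CPM in vehicle and 18.8 ± 1.69 at 10 nM, so at the high dose it stood level with ACKR3. For CXCR4 the first 5 were SNAPC2 (0.996), ATG101 (0.993), SURF4 (0.993), PAK1IP1 (0.991) and RPN1 (0.991), with log2 changes of 1.10, 1.49, 1.03, 3.14 and 0.85. Among these only PAK1IP1 changed by a similar amount, from 20.5 to 181 CPM.

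**Figure D4:**
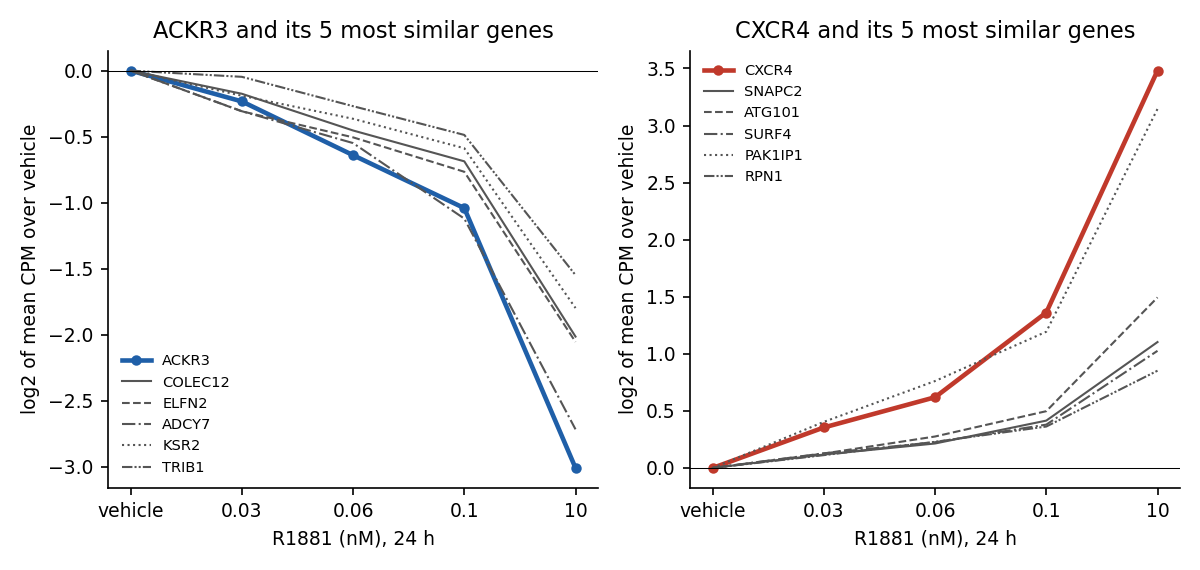
Mean level relative to vehicle, as log2, of ACKR3 (left, blue) and CXCR4 (right, red) and of the 5 genes most like each, against R1881 dose. ACKR3 goes lowest of its panel at 10 nM (12.4% of vehicle) with ADCY7 next, and CXCR4 goes highest (11.2 times vehicle) with PAK1IP1 next.

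The nearest protein-coding genes, a rule added after the values were seen, were taken 2 on each side of each receptor gene. Around ACKR3, IQCA1 (60.2 kb away), ASB18 and COL6A3 were not among the genes tested. COPS8, 503 kb away, had 63.4 ± 1.8 CPM in vehicle and 69.3 ± 2.85 at 10 nM (log2 0.13 ± 0.046, edgeR adjusted p = 0.0229, and −0.08 with library totals), so the 1 tested neighbour of ACKR3 changed by far less than ACKR3 itself. Around CXCR4, THSD7B and HNMT were not among the genes tested. MCM6, a replication helicase gene 238 kb away, had 0.33 ± 0.072 (edgeR adjusted p = 0.000837, and 0.12 with adjusted p = 0.226 under library totals). This was far below the 3.46 of CXCR4.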

How the data were processed

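The submitters' processing notes name Trimmomatic 0.39, STAR 2.7.8a, DESeq2 1.36.0 and GRCh38, and per the labels' protocols the libraries were made with a stranded mRNA kit. The counter, annotation release and strand setting are not given in the sources used here. The deposited values are raw whole-number counts per gene, with no normalization by the authors. Columns were assigned by name, and 15 columns of VCaP cells that match no label were not used. Of 37843 gene IDs, 37732 matched a symbol table. Positions and exon lengths are from GENCODE 29, which may differ from the release counted.

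The count model was edgeR's quasi-likelihood fit (version 4.0.16, R 4.3.3) with TMM factors. It took in the 15 libraries, a mean for every group and the 18403 genes that filterByExpr kept. Tests were two-sided and called at a Benjamini-Hochberg adjusted p under 0.05. CPM are counts over TMM-scaled totals, and SEs were derived from the F statistic. The ratio used an exact permutation test (scipy 1.17.1). The fit was tested on simulated data. Members, lists and tests were chosen with earlier results of these data known. Named genes were the receptors, KLK3, members of the lists and the 5 genes most like each receptor; some genes that this rule or the lists name are not reported here. Alternatives were RLE factors, library totals, DESeq2 1.42.0, no or a stricter low-count filter (a mean count of 20 or more, and 1 CPM or more in 3 libraries), a replicate block, fewer libraries and a pseudocount of 1 for the ratio.

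Total counts of 30666460 to 61199483 set the precision, and Poisson intervals cover counting error only, since PCR copies were not marked. Promoters are from RefSeq, GRCh38.p14.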

Additional observations from a re-analysis of the deposited data

How the results depend on the processing

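All 16 receptor comparisons kept their direction and their side of the threshold under each of 23 alternatives. At 10 nM against vehicle the log2 difference ran from −3.22 to −2.98 for ACKR3 and from 3.25 to 3.73 for CXCR4, and the ratio from −6.79 to −6.31. Counts of genes called moved more. For 0.03 nM against vehicle 1588 genes were called, 3195 with the replicate block, 1008 in a fit to only the libraries compared, and 979 (without vehicle replicate 4) to 1650 with 1 library left out. For 0.06 against 0.03 nM 1152 were called, 2926 with the replicate block, 1949 without the 5 libraries numbered 3, and 434 to 1296 with 1 library left out (582 and 535 without 0.03 nM replicate 2 or 4, 434 and 674 without 0.06 nM replicate 2 or 4). For 0.1 against 0.06 nM 251 were called, 385 by DESeq2, 501 with no filter, 899 with the block, 407 without the libraries numbered 3, and 106 to 276 with 1 library left out (140 and 106 without 0.06 nM replicate 2 or 4, 136 and 118 without 0.1 nM replicate 3 or 4). The cause was not tested. Same-numbered libraries deviated together in 23 of 30 pairs (r over 0.1), and each of the 15 libraries correlated best with its own number, a hint from the data and not the design. The block changed no receptor call.

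At 10 nM against vehicle some list genes changed sign. Under library totals the log2 values were −0.0343 for MIF, −0.0903 for HMGB1, −0.0169 for GRK6, −0.00956 for STAM2 and −0.13 for GNB1. With 1 library left out MIF ran from −0.00166 (without vehicle replicate 4) to 0.352, and GNG5 from −0.203 to 0.0327 (positive without vehicle replicate 2 or 3 or 10 nM replicate 2). Depth limits CXCR4, with 11 to 22 counts per library up to 0.06 nM, and its low-dose changes could not be resolved.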
